A study of Homo sapiens with 8 samples.

Results

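The proteasome genes were taken as all protein-coding genes whose symbols start with PSMA, PSMB, PSMC, PSMD, PSME, PSMF or PSMG. There were 50 of them among the 19056 genes matched on the array, and all 50 passed the filter on dim genes, as did 19046 genes in total. They were read by 66 probes, and for the 14 genes with several probes the brightest on average was used. The scanner software called 48 of the 50 well above background on all 8 arrays, the exceptions being PSMA8 and PSMB11. By their roles, 14 genes belonged to the core particle, 9 to the base, 8 to the lid and 5 to tissue-specific or inducible forms of the core. Another 5 belonged to other activators and an inhibitor and 7 to assembly chaperones, and 2 matched by symbol but belonged to none of these groups.

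The cells were A549, an established line from a human lung carcinoma, exposed to EEDS (an ethanol extract of Descurainia sophia seeds) at 0, 1.25, 5 or 20 μg/mL, or to helveticoside, a cardiac glycoside that blocks the sodium pump, at 0, 3.75, 15 or 60 nM. Each dose had 1 one-colour Agilent whole genome array holding RNA pooled from 3 cultures, so the 2 series had 4 arrays each with a vehicle control of their own. The methods of the study give an exposure of 24 h for the arrays and the treatment protocol in the sample labels gives 48 h. The comparisons ask how the transcripts of the proteasome followed the dose of the extract and of its component, and whether core, base and lid moved alike.

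The proteasome is the protease that degrades proteins marked with ubiquitin chains. Its barrel-shaped core is built of rings of PSMA (alpha) and PSMB (beta) subunits, with the active sites on PSMB5, PSMB6 and PSMB7. A regulatory particle caps the barrel: its base holds the PSMC ATPases that unfold the substrate, and its lid holds the deubiquitinase PSMD14. PSMB8, PSMB9 and PSMB10 replace the active subunits in the immunoproteasome, and NFE2L1 is the transcription factor known for raising proteasome genes when the protease is inhibited.

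Facts of the arrays that touch these values are few. The median scanned signal of probe spots was 182 to 214 on EEDS arrays and 223 to 278 on helveticoside arrays, over a median local background of 27 to 34, and no probe spot was saturated. The epithelial markers KRT8, KRT18, KRT19, EPCAM and CDH1 were well above background on all 8 arrays. Among markers of blood, endothelial and stromal cells, CD3E, PECAM1, PDGFRB and FAP were not well above background on any array, and PTPRC and CDH5 were on all 8. Of these 5, CDH1, KRT18 and KRT19 fell in both series and KRT8 with EEDS (limma adjusted p of 0.0302 to 0.0452), while EPCAM was not called. At the top doses CDH1 had log2 ratios of -2.70 and -2.71, KRT19 -1.9 and -1.72 and EPCAM 0.05 and -0.26. Their part in the results below was not tested. In a culture, fewer cells of a kind and less RNA per cell cannot be told apart.

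Most proteasome genes lay near their control level, and a minority lay apart from it, in both directions. The values are log2 ratios of each treated array to the vehicle control of its own series. At the top dose the median over the 50 genes was -0.04 with EEDS and -0.01 with helveticoside, beside 0.02 and -0.0039 over all genes tested. The median size of the ratio, without its sign, was 0.31 and 0.24 over the 50 genes, beside 0.52 and 0.43 over all genes. At 20 μg/mL EEDS, 7 of 50 were 1.5-fold or more higher, beside 23.1% of all genes, and 9 were 1.5-fold or more lower, beside 23.2%. At 60 nM helveticoside, 5 were 1.5-fold or more higher, beside 20.5%, and 9 were lower, beside 20.3%. Between the 2 vehicle controls, which differ in series but in no treatment, 2 of the 50 were 1.5-fold or more higher and 2 lower, beside 24.2% of all genes in either direction. A single array per dose allows no test of these ratios.

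**Figure D1:**
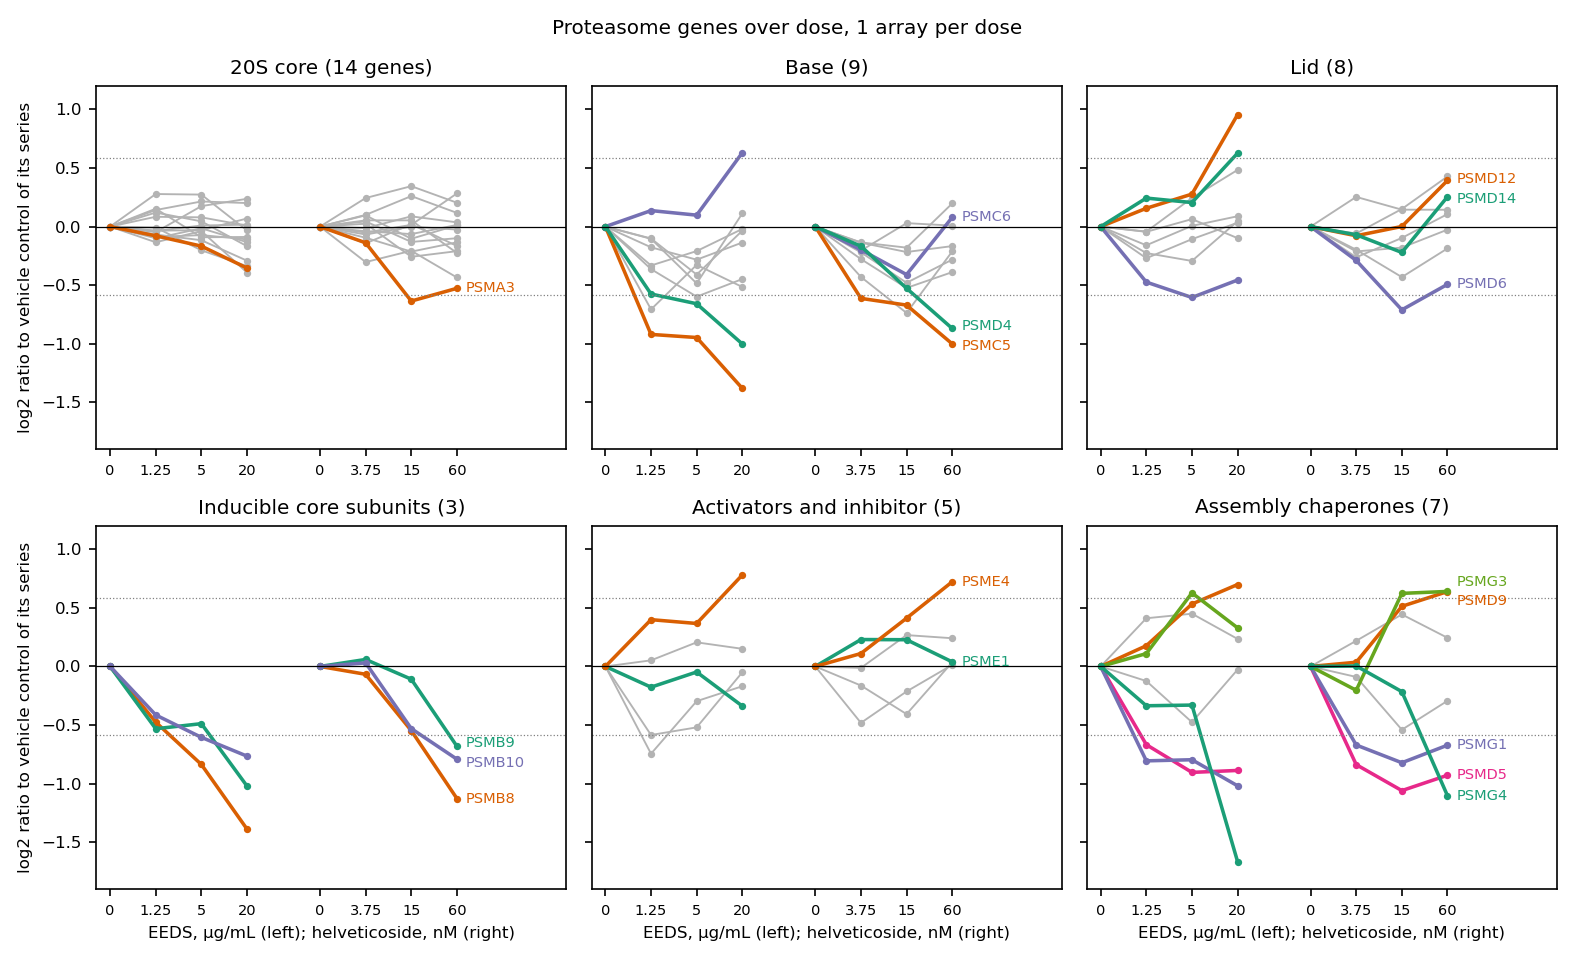
Log2 ratio of the proteasome genes above background on all arrays, apart from PSMC3IP and PSME3IP1, to the vehicle control of their series (vertical axis) over the dose of EEDS in μg/mL and of helveticoside in nM (horizontal axis), 1 line per gene, dotted lines at 1.5-fold. The core genes run between -0.64 and 0.35, whereas PSMC5 and PSMD4 of the base and PSMB8, PSMB9 and PSMB10 run downward in both series.

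The quantities with a test were the dose trend and its difference between the series. The trend was a slope of the log2 level per dose step, fitted for each series with limma over the 8 arrays, with Benjamini-Hochberg adjustment over 19046 genes. With EEDS, 4 of the 50 genes fell (PSME3IP1, PSMB8, PSMC5 and PSMD4), beside 7.85% of all genes, and 3 rose (PSMC3IP, PSMD9 and PSMB11), beside 7.27%. With helveticoside, 4 fell (PSME3IP1, PSMB8, PSMD4 and PSMB10), beside 5.8% of all genes, and 2 rose (PSMC3IP and PSMD9), beside 5.48%. These counts lie near the shares over all genes and are no result about proteasome genes as a list. The calls rest on few arrays. With the 4 arrays of a series fitted alone, none of the 50 genes was called in either series by limma, while 12 and 11 had an unadjusted p under 0.05, beside 28.0% and 25.9% of all genes. In the fit of 8 arrays 15 and 13 did, beside 33.4% and 29.8%. Leaving out the EEDS vehicle control, 20 μg/mL EEDS or 15 nM helveticoside left 0 calls for EEDS. Leaving out 1.25 or 5 μg/mL EEDS or 60 nM helveticoside left 4 and leaving out either of the other 2 arrays left 7, with PSMB8, PSMD4 and PSME3IP1 among the calls each time. For helveticoside, leaving out 5 μg/mL EEDS, 15 nM or 60 nM helveticoside left 0 calls. Leaving out 20 μg/mL EEDS left PSME3IP1, leaving out the helveticoside vehicle control left PSMC3IP, and leaving out any of the other 3 arrays left 2 calls.

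**Figure D2:**
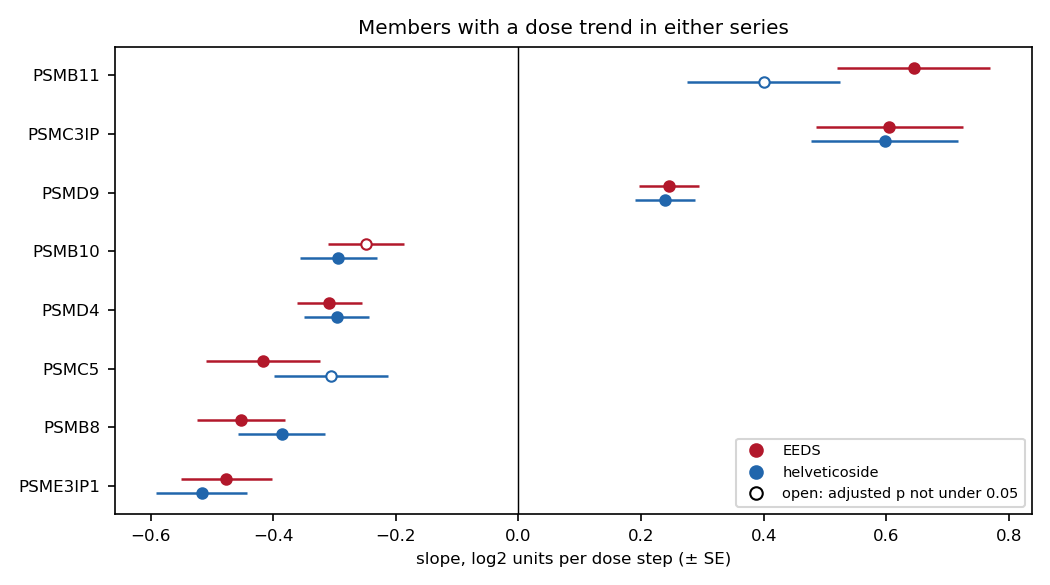
Slope of the log2 level per dose step with its SE (horizontal axis) for the 8 proteasome genes with a limma adjusted p under 0.05 in either series (vertical axis), EEDS in red and helveticoside in blue, open points where the adjusted p was not under 0.05. The slopes of PSME3IP1, PSMB8, PSMC5, PSMD4 and PSMB10 are below 0 in both series and those of PSMD9, PSMC3IP and PSMB11 above 0.

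At the top doses core, base and lid had medians between -0.21 and 0.13, and their members spread to different extents. At 20 μg/mL EEDS the median log2 ratio was -0.10 over the 14 core genes, -0.14 over the 9 base genes and 0.07 over the 8 lid genes. At 60 nM helveticoside the medians were -0.06, -0.21 and 0.13. Scaled to the 75th percentile of each array, which moved the median of all genes to -0.36 and -0.18 at these doses, the core and base medians turned positive, at 0.08 and 0.04 with EEDS and 0.29 and 0.15 with helveticoside. Relative to that shift, taken over all genes tested with dim ones included, all 3 groups lay above the median gene. The lid lay farthest, by 0.68 and 0.53, then the core by 0.43 and 0.47 and the base by 0.40 and 0.32. The distance from genes above background on every array was not measured. Of those 11498 genes, 5926 and 5379 lay below their control with this scaling. So did 6 and 2 of 14 core genes, 4 and 3 of 9 base genes and 1 of 8 lid genes at each dose.

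Core ratios ran from -0.39 to 0.24 with EEDS and from -0.53 to 0.28 with helveticoside. Base ratios ran from -1.38 to 0.63 and from -1.0 to 0.20, and lid ratios from -0.46 to 0.96 and from -0.49 to 0.43. The median size of the ratio, without its sign, was 0.15 for the core at both top doses, less than the 0.21 measured for the same genes between the vehicle controls. For the base it was 0.45 and 0.21 at the top doses and 0.12 between the controls, and for the lid 0.28, 0.22 and 0.28. Over the 11498 genes above background on every array it was 0.63, 0.52 and 0.27. These groups were compared by description only, since genes of a complex are no replicates.

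**Figure D3:**
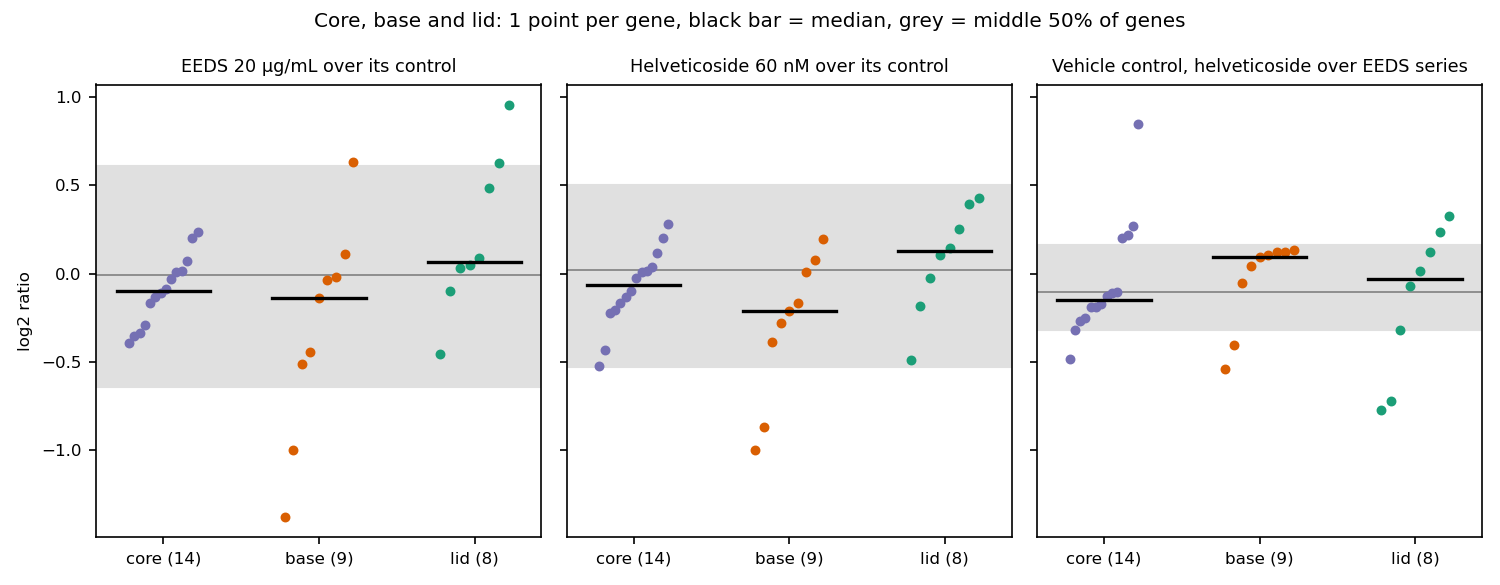
Log2 ratio of each core, base and lid gene (vertical axis, 1 point per gene, black bar the median) at 20 μg/mL EEDS, at 60 nM helveticoside and between the vehicle controls, with the middle 50% of the genes above background on every array in grey. All core points lie within the grey band at both top doses, whereas 2 base points, PSMC5 and PSMD4, lie below it at each.

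In the core, no gene had a dose trend in either series. Of the 7 alpha-ring genes, 6 lay below their control at 20 μg/mL EEDS and all 7 at 15 nM helveticoside, but 4 and 1 did when arrays were scaled to the 75th percentile. PSMA3, an alpha-ring subunit, had log2 levels of 14.21, 14.13, 14.04 and 13.85 at 0, 1.25, 5 and 20 μg/mL EEDS. In the helveticoside series they were 14.47, 14.34, 13.84 and 13.95 at 0, 3.75, 15 and 60 nM. Its ratio of -0.64 at 15 nM was the only one of a core gene past 1.5-fold on any treated array, and its slope of -0.21 ± 0.06 (SE) did not pass (limma adjusted p = 0.0766).

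The 3 active beta subunits lay near their controls. PSMB5, which carries the chymotrypsin-like site, had log2 levels of 15.15, 15.29, 15.36 and 15.35 over the rising EEDS doses and 14.66, 14.76, 14.92 and 14.78 over those of helveticoside. PSMB6, with the caspase-like site, had 15.67, 15.66, 15.47 and 15.33, then 15.42, 15.47, 15.47 and 15.19. PSMB7, with the trypsin-like site, had 15.08, 15.04, 15.09 and 15.10, then 15.28, 15.21, 15.28 and 15.26. PSMB5 was above its control on all 6 treated arrays and PSMB6 below it at both top doses, although the ratio of PSMB6 at 60 nM helveticoside turned to 0.12 with the 75th-percentile scaling. The limma adjusted p of their slopes ranged from 0.128 (PSMB6, EEDS, slope -0.12 ± 0.04) to 0.998. PSMB5 was lower on the helveticoside control than on the EEDS control (log2 difference of -0.49), a distance larger than each of its treated ratios.

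In the base, an ATPase and a ubiquitin receptor had called trends. With quantile normalization PSMC1, PSMC2, PSMC4, PSMC5 and PSMD4 all lay below their controls on every treated array. With the 75th-percentile scaling not all of these genes did. Only 4 of the 9 base genes then lay below their control at the top EEDS dose, and 3 at the top helveticoside dose. PSMC5, an ATPase of the base, had log2 levels of 11.78 on the EEDS control and 10.86, 10.83 and 10.40 at the rising doses. On the helveticoside arrays it had 11.88 on the control and then 11.27, 11.21 and 10.88. All 6 treated arrays lay below both controls, with most of the distance reached at the lowest dose. It fell with EEDS (slope of -0.42 ± 0.09 per step, limma adjusted p = 0.0407), and its helveticoside slope was -0.31 ± 0.09 (adjusted p = 0.0959). The EEDS call was kept in 10 of 18 alternative fits, and of the 8 fits that left out 1 array it was kept only without 1.25 μg/mL EEDS, with slopes of -0.47 to -0.23 over the 8, the last of them without the EEDS control.

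PSMD4, the ubiquitin receptor between base and lid, had log2 levels of 14.38, 13.80, 13.72 and 13.38 over EEDS and 14.50, 14.34, 13.98 and 13.63 over helveticoside. It fell in both series, by 0.31 ± 0.05 and 0.30 ± 0.05 per step (limma adjusted p = 0.0238 and 0.0306). The levels on the treated arrays decreased with each dose in both series and lay below both controls. The calls were kept in 13 and 10 of 18 alternative fits, and scaling to the 75th percentile ended both (slopes of -0.22 and -0.20, adjusted p = 0.0913 and 0.152). The other base genes were not called. PSMC6, another ATPase, lay at 0.63 above its control at 20 μg/mL EEDS and at 0.08 at 60 nM helveticoside, and its slopes had adjusted p = 0.239 and 0.998. ADRM1, another ubiquitin receptor of the base, which carries no PSM symbol, had ratios of -0.49 and -0.04 and was not called.

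In the lid, no gene had a called dose trend with quantile normalization over the 8 arrays, but alternatives called 3 genes as rising. PSMD12, a structural subunit, had the highest ratio of a lid gene at 20 μg/mL EEDS: its log2 levels were 11.32, 11.47, 11.60 and 12.27. With helveticoside they were 11.44, 11.36, 11.44 and 11.83. The top dose was the highest array of both series, and the EEDS slope of 0.30 ± 0.08 did not pass (limma adjusted p = 0.0633), while it passed in 5 of 18 alternative fits. PSMD14, the deubiquitinase, had 13.83, 14.07, 14.04 and 14.46 with EEDS and 14.07, 13.996, 13.84 and 14.32 with helveticoside (adjusted p = 0.161 and 0.713; called with EEDS under the 75th-percentile scaling). PSMD8, a lid subunit with ratios of 0.48 and 0.43 at the top doses, was not called either (adjusted p = 0.0815 and 0.13), except with helveticoside under the 75th-percentile scaling. PSMD6 lay below its control on all 6 treated arrays, at -0.46 and -0.49 at the top doses. SEM1, a small lid subunit outside the PSM symbols, had ratios of 0.60 and 0.47 (adjusted p = 0.0619 and 0.11).

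The inducible core subunits were lower at the top dose of both series, whereas the constitutive subunits that they replace were not past 1.5-fold. Their promoters are shown because these genes are known to respond to interferon. The sequences are 300 bases long, run from 250 bases before to 50 bases after a transcription start of RefSeq (GRCh38.p14), and are written 5′ to 3′ on the gene's strand. Capitals mark matches, on either strand, to TGACNNNGC (the core of the antioxidant response element), CCAAT or GAAA followed after any 2 bases by GAAA (the core of the interferon-stimulated response element). PSMB8 (chr6:32843998-32844297, minus strand), PSMB10 (chr16:67936801-67937100, minus strand) and TAP1 (chr6:32853655-32853954, minus strand) hold the interferon core. PSMB9 (chr6:32853942-32854241, plus strand) holds the antioxidant core and CCAAT. TAP1, the peptide transporter gene that starts 488 bases from PSMB9 on the opposite strand, has 2 overlapping interferon cores, and its CCAAT match is that of PSMB9, where the windows overlap. PSMB8 and TAP1 each have another start in the table, whose window holds none of these matches.
PSMB8: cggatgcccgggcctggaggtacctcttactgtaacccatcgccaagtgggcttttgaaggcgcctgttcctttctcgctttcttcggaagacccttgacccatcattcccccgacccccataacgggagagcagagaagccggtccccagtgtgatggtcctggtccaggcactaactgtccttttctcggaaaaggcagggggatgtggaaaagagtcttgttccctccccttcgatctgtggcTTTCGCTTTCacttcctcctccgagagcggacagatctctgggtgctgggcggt
PSMB9: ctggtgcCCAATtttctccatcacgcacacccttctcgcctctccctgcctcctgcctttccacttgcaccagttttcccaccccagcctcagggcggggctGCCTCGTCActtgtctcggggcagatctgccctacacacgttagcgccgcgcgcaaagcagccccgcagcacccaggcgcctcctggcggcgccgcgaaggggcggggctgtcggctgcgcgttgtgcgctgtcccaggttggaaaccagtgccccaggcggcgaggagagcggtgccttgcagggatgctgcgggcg
PSMB10: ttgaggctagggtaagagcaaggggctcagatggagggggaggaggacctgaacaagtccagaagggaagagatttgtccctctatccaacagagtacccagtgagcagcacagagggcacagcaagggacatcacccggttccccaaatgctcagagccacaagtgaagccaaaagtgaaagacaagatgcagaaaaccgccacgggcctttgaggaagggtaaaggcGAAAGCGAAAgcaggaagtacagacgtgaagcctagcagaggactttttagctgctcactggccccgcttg
TAP1: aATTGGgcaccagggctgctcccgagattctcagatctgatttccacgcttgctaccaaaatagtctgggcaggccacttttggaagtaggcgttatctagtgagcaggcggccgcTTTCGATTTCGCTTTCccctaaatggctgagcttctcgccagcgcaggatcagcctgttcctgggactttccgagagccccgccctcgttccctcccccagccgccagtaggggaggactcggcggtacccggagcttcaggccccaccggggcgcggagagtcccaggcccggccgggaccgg

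PSMB8, which stands in for PSMB5 in the immunoproteasome, had log2 levels of 9.01, 8.54, 8.18 and 7.63 over EEDS and 8.64, 8.57, 8.09 and 7.51 over helveticoside. Its level decreased with each dose in both series, to a ratio of -1.39 at 20 μg/mL and -1.13 at 60 nM. It fell by 0.45 ± 0.07 per step with EEDS and 0.39 ± 0.07 with helveticoside (limma adjusted p = 0.0199 and 0.0318). The EEDS call was kept in 14 of 18 alternative fits and the helveticoside call in 6. PSMB10, which stands in for PSMB7, had 13.82, 13.40, 13.21 and 13.05, then 13.68, 13.71, 13.15 and 12.89. It fell with helveticoside (slope of -0.29 ± 0.06, adjusted p = 0.0434, kept in 8 of 18 alternative fits), and its EEDS slope of -0.25 ± 0.06 narrowly missed the threshold (adjusted p = 0.0536) and passed in 6 of 18 alternative fits.

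PSMB9, which stands in for PSMB6, had log2 levels of 10.84, 10.30, 10.35 and 9.82 over EEDS. Over helveticoside it had 10.68, 10.74, 10.57 and 10.00. The top dose was the lowest array of each series, at ratios of -1.02 and -0.68, and the slopes did not pass (limma adjusted p = 0.0741 and 0.164), the EEDS slope passing in 2 of 18 alternative fits. TAP1 went the other way. Its log2 levels were 11.79, 12.56, 13.31 and 13.30, then 11.39, 11.90, 12.95 and 13.17, and it rose in both series (slopes of 0.53 ± 0.11 and 0.64 ± 0.11, adjusted p = 0.0345 and 0.0284). No treated array overlapped the controls in TAP1. The interferon core stands in 3.57% of 35116 RefSeq promoter windows and in 7 of 55 windows of the proteasome genes, and a match is a description of the sequence only.

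**Figure D4:**
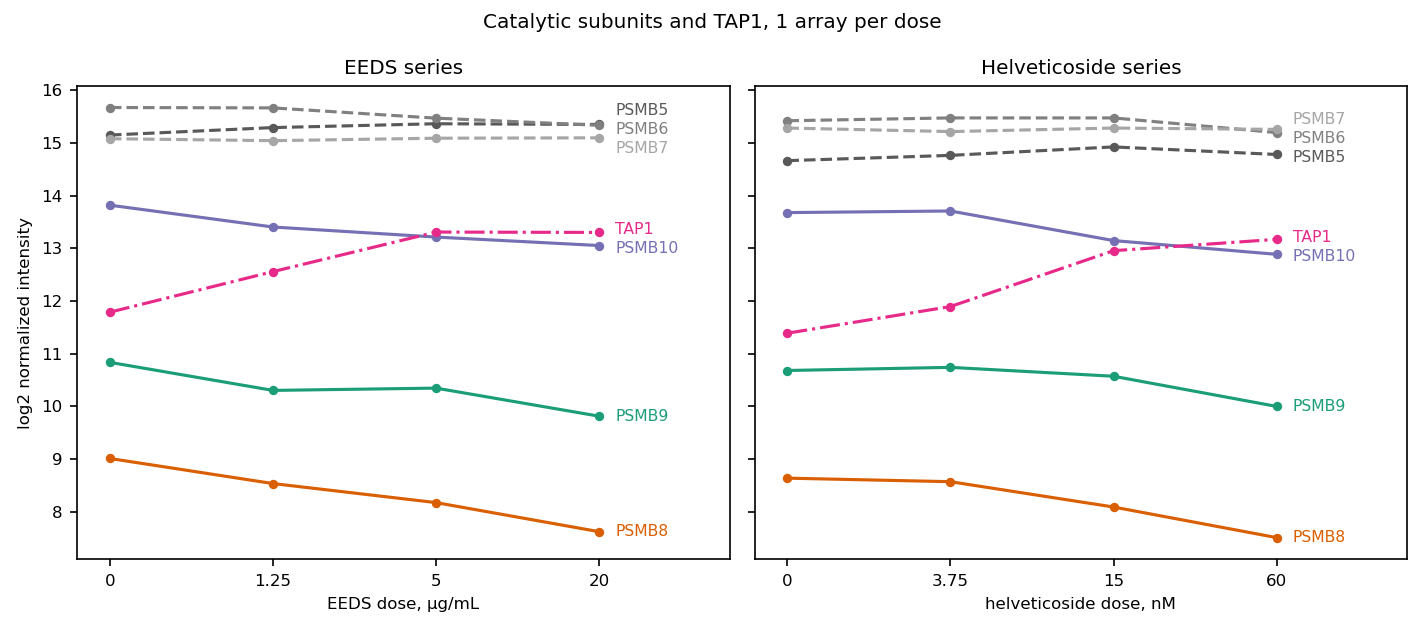
Log2 normalized intensity (vertical axis) of the constitutive active subunits PSMB5, PSMB6 and PSMB7, the inducible PSMB8, PSMB9 and PSMB10, and TAP1 over dose (horizontal axis), 1 array per dose, EEDS series on the left and helveticoside on the right. Lines of different genes come from different probes and their heights are not comparable. The inducible subunits slope downward, TAP1 upward, and the constitutive subunits stay near their controls, PSMB6 farthest at -0.34.

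Of the 9 genes of antigen processing on the list, TAP1 was the only one called in either series by limma, and 4 and 3 of the 9 had an unadjusted p under 0.05, beside 33.4% and 29.8% of all genes. IRF1, a transcription factor of the interferon response, had ratios of 0.10, -0.11 and 2.49 over EEDS and -0.31, -0.63 and 0.95 over helveticoside. It was not called (adjusted p = 0.206 and 0.747).

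The remaining forms of the core were dim. PSMA8, the alpha subunit of testis, was not well above background on any array. PSMB11, the beta subunit of thymic epithelium, was so on 20 μg/mL EEDS and on the 3 treated helveticoside arrays, and on neither control. Its top dose was at least 1.77-fold higher in the EEDS series and at least 2.5-fold higher in the helveticoside series, where the control is set to the higher of its own signal and the lowest signal called above background. Its EEDS trend (limma adjusted p = 0.0304) rests on 3 EEDS arrays that were not well above background, its second probe had ratios of 0.20 and -0.05, and its log2 level differed by 2.23 between the vehicle controls.

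Among the assembly chaperones, which help the rings and the base to form and are absent from the finished particle, some were higher and some lower. The promoters of PSMD9, which rose, and of PSMC5, which fell, are shown as one of each direction, written and marked as above. PSMD9 (chr12:121888540-121888839, plus strand) holds the antioxidant core on both strands, and PSMC5 (chr17:63827181-63827480, plus strand, one of 2 starts in the table) holds CCAAT, while its other window holds the antioxidant core. The antioxidant core stands in 15 of 55 windows of the proteasome genes (27.3%) and 13.3% of all windows, and CCAAT in 24 (43.6%) and 34.6%, with windows of one gene overlapping in part.
PSMD9: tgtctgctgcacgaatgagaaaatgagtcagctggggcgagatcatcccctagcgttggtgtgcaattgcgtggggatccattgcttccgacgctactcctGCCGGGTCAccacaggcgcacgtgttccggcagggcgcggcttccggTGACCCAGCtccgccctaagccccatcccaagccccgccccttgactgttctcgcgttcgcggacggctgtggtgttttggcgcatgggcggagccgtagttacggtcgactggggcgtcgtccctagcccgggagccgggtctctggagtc
PSMC5: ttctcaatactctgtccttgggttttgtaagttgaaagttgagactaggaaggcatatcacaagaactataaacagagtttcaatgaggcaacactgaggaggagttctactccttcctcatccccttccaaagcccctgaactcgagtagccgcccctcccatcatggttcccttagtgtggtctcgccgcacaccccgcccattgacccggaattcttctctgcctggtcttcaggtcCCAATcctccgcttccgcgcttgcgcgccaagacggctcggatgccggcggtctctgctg

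PSMD9, a chaperone of the base, had log2 levels of 13.86, 14.04, 14.40 and 14.56 over EEDS and 13.63, 13.67, 14.15 and 14.27 over helveticoside. The level increased with each dose in both series. It rose by 0.25 ± 0.05 and 0.24 ± 0.05 per step (limma adjusted p = 0.0319 and 0.0397), a call kept in 9 and 8 of 18 alternative fits. Its second probe, not above background on all arrays, had ratios of 0.57 and 0.38 at the top doses, beside 0.70 and 0.64 for the first.

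PSMG1, which with PSMG2 assists the alpha ring, had log2 levels of 13.66, 12.85, 12.86 and 12.64, then 13.57, 12.90, 12.75 and 12.90. All 6 treated arrays lay below both controls, with the distance reached at the lowest dose, and the slopes did not pass (limma adjusted p = 0.123 and 0.269). PSMD5, a chaperone of the base, had the same form, with ratios of -0.67, -0.90 and -0.89 for EEDS and -0.84, -1.06 and -0.93 for helveticoside. Its second probe, also above background on all arrays, read 0.01 and 0.06 at the top doses, so that the probes of PSMD5 disagree. PSMG4, partner of PSMG3, stood near its control up to the middle dose and then at -1.67 and -1.10, while its second probe, not above background on all arrays, read 0.02 and -0.04. PSMG3 had ratios of 0.11, 0.63 and 0.33, then -0.20, 0.62 and 0.64. Neither was called (adjusted p of 0.0833 to 0.42), though PSMG4 was with EEDS in 5 of 18 alternative fits. Nor was POMP called, the chaperone of the beta ring outside the PSM symbols, at 0.64 and 0.52.

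The activators and the inhibitor held no called gene, apart from PSME4 with EEDS when each series was normalized separately. PSME4, an activator that binds acetylated histones, had log2 levels of 9.67, 10.07, 10.04 and 10.45, then 9.68, 9.79, 10.09 and 10.40. Every treated array lay above its control, and the slopes narrowly missed the threshold (0.23 ± 0.06 and 0.25 ± 0.06, limma adjusted p = 0.0559 and 0.0558). Its second probe had ratios of 0.35 at both top doses. PSME1 and PSME2 form the interferon-inducible activator ring. PSME1 had ratios of -0.18, -0.05 and -0.34 for EEDS and 0.23, 0.23 and 0.04 for helveticoside, with no difference of slopes called (-0.10 ± 0.09). PSME2 had 0.15 and 0.24 at the top doses. PSME3, the nuclear activator, had -0.585, -0.52 and -0.05 over the rising EEDS doses and -0.16, -0.41 and 0.03 over those of helveticoside. PSMF1, the inhibitor, had -0.74, -0.30 and -0.17, then -0.48, -0.21 and 0.01. In both genes the top dose lay nearest the control. The other probes of PSMF1, all above background on all arrays, read -0.12, -0.10 and -0.65 at 20 μg/mL EEDS.

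Both genes that matched by symbol but belonged to none of the groups above changed in both series. PSMC3IP encodes a partner of the recombinases in meiotic recombination, and PSME3IP1 encodes a protein that binds PSME3. PSMC3IP had log2 levels of 8.90, 9.63, 10.07 and 10.77 over EEDS and 8.89, 8.73, 9.72 and 10.55 over helveticoside. It rose in both series, by 0.60 ± 0.12 per step in each (limma adjusted p = 0.0315 and 0.0384), calls kept in 12 and 11 of 18 alternative fits. Its helveticoside slope was 0.91 without the helveticoside control. PSME3IP1 had 10.78, 9.92, 9.64 and 9.28, then 10.49, 10.10, 9.40 and 9.0. It fell by 0.48 ± 0.07 and 0.52 ± 0.07 per step (adjusted p = 0.0197 and 0.0219), kept in 14 and 13 of 18 alternative fits, and its second probe had ratios of -1.08 and -1.22. Without them the calls among subunits, activators and chaperones were 3 falling and 2 rising genes with EEDS and 3 and 1 with helveticoside.

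The shape over dose was not always a slope. The following count was made after the data were seen. Of the 48 genes above background on every array, 9 had their lowest level at the middle dose of the EEDS series, and all 9 also had it at the middle dose of helveticoside: PSMA6, PSMC1, PSMC2, PSMC4, PSMD1, PSMD6, PSMD11, PSMD5 and PSMG2. That is 18.8% of the 48, beside 6.7% of the 11498 genes above background on all arrays. Of the 11498, 1442 were lowest at the middle dose of EEDS and 767 in both series. In the helveticoside series, 19 of the 48 and 1675 of the 11498 were lowest at the middle dose. With the 75th-percentile scaling the count in both series was 6 of 48 (12.5%), beside 5.2%. By group, it was 4 of 9 base genes, 2 of 8 lid genes and 1 of 14 core genes with quantile normalization, and 3, 1 and 0 with that scaling. In PSMA6 and PSMD5 the middle and top EEDS doses were nearly level, at 15.618 and 15.620 and at 9.29 and 9.31. PSMD1, a scaffold subunit of the base, had log2 levels of 14.27, 14.16, 13.78 and 14.38 over EEDS and 14.40, 13.97, 13.66 and 14.19 over helveticoside. PSMC1, an ATPase, had 14.62, 14.52, 14.21 and 14.58, then 14.66, 14.44, 14.18 and 14.38. In both genes the middle dose was the lowest of either series and the top dose lay above the middle one, near the control with EEDS (ratios of -0.03 for PSMC1 and 0.11 for PSMD1) and below the control with helveticoside (-0.28 and -0.21). A slope does not describe such a shape, and these genes were not called (adjusted p of 0.448 to 1.0 for PSMC1 and PSMD1).

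The 2 series gave similar values gene by gene. Across the 48 genes, which are not independent replicates, the top-dose ratios of EEDS and helveticoside correlated with Pearson's r of 0.94 and Spearman's rho of 0.86, beside 0.93 and 0.91 over all 11498 genes above background. They had the same sign for 34 of the 48 (70.8%), beside 86.9%, and for 9 of the 14 core genes, whose ratios were close to 0. The difference of the slopes was called for 0 of 19046 genes (0.0%), with an unadjusted p under 0.05 for 525 of them and for none of the 50. Among the 48 proteasome genes above background on all arrays the widest difference was that of PSMC6, 0.18 ± 0.13 per step in favour of EEDS. The doses of the agents are not matched, and agent and series cannot be told apart.

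Proteasome genes were also set beside the neighbours with which they share a start region, a comparison added once the data had been seen. In 9 pairs the neighbour started within 1000 bases on the opposite strand, and in 8 of them both genes were above background on all arrays. PSMB9 and TAP1 were the only such pair past 1.5-fold in opposite directions at both top doses. PSMC5 went with FTSJ3, an rRNA processing gene starting 58 bases away, which fell with EEDS (-1.03 at the top dose, limma adjusted p = 0.0372) and had -0.79 with helveticoside (adjusted p = 0.0688). SIRT3, a mitochondrial deacetylase starting 45 bases from the lid gene PSMD13, fell in both series (-1.77 and -1.43, adjusted p = 0.0269 and 0.0426), whereas PSMD13 had 0.03 and 0.11. RNF31, a subunit of the linear ubiquitin ligase starting 265 bases from PSME2, fell as well (-1.49 and -1.12, adjusted p = 0.014 and 0.0252), while PSME2 had 0.15 and 0.24.

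**Figure D5:**
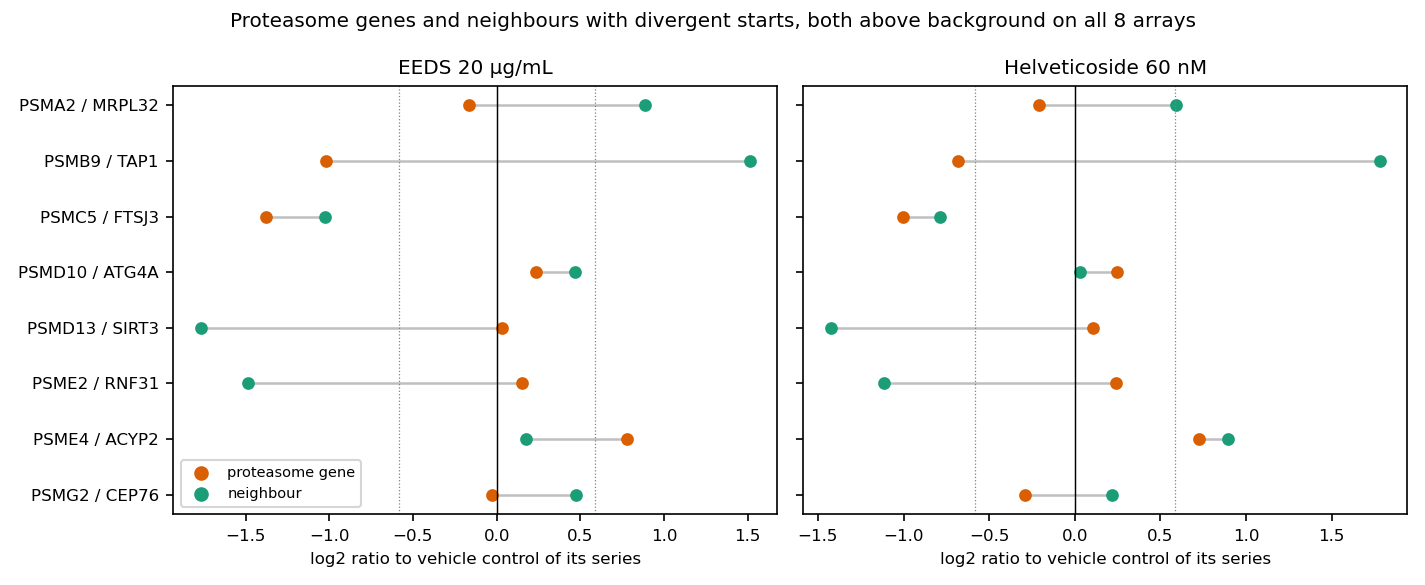
Log2 ratio at the top dose of EEDS and of helveticoside (horizontal axis) for 8 proteasome genes and the neighbour that starts within 1000 bases on the opposite strand (vertical axis, 1 pair per row), dotted lines at 1.5-fold. PSMB9 and TAP1 lie on opposite sides of 0, PSMC5 and FTSJ3 on the same side, and SIRT3 and RNF31 lie below proteasome genes that are near 0.

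Several genes around the proteasome changed with dose. Of 12 genes that control proteasome gene transcription, 5 rose with EEDS, beside 7.27% of all genes, and 4 with helveticoside, beside 5.48%, and none fell. The list was chosen with earlier results of these data known, so these counts are no test of it. MAFF, MAFK and FBXW7 stand in the study's own list of genes raised by EEDS. NFE2L1 itself had log2 levels of 12.42, 13.12, 13.60 and 13.29, then 12.36, 12.73, 13.32 and 13.26. All treated arrays lay above both controls, and the slopes did not pass (limma adjusted p = 0.136 and 0.134). DDI2, the protease that activates NFE2L1, had ratios of 2.62 and 2.27 at the top doses and rose with EEDS (adjusted p = 0.0333; helveticoside 0.0511). MAFF (5.30 and 4.44) and MAFK (2.42 and 2.31), small Maf partners of NFE2L1, rose in both series (adjusted p of 0.0129 to 0.0205). So did SYVN1, a ligase that marks NFE2L1 for degradation (0.70 and 0.87, adjusted p = 0.046 and 0.0295). FBXW7 rose with EEDS (2.10, adjusted p = 0.0332) and BTRC with helveticoside (0.98, adjusted p = 0.0363), both ligase subunits that recognise NFE2L1. NGLY1, the enzyme that deglycosylates NFE2L1, had -0.68 and -1.0 and was not called. NFE2L2 was read by 1 probe, which was not well above background on any array. With no second probe, a missing transcript and a probe that does not detect it cannot be told apart.

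Of 20 partners of the proteasome with a probe, 1 rose and 2 fell with EEDS, beside 7.27% and 7.85% of all genes, and 2 fell with helveticoside, beside 5.8%, shares near the background. PAAF1, an ATPase-binding regulator of assembly, had log2 levels of 12.46, 11.48, 11.19 and 10.53, then 12.31, 12.14, 11.24 and 10.85. It fell by 0.61 ± 0.09 and 0.53 ± 0.09 per step (limma adjusted p = 0.0176 and 0.0268). UBE3C, a ubiquitin ligase bound to the proteasome, fell by the probe that stands for it (-1.14 and -1.04 at the top doses), while its second probe read 0.67 and 0.16. USP14, a deubiquitinase of the base, had -1.16 and -0.95, ZFAND5, an activator, 1.22 and 0.34, and AKIRIN2, an import factor, 1.2 and 1.09, none of them called. Among 12 genes of VCP, the segregase that feeds the proteasome, and its cofactors, ASPSCR1 fell in both series (-1.38 and -1.11) and FAF2 rose with helveticoside (1.36; EEDS 1.17, adjusted p = 0.051). UBXN1 (-0.68 and -1.08) was past 2-fold at 60 nM helveticoside and UBXN7 (1.0 and 0.95) at 20 μg/mL EEDS, and neither was called. Of 6 genes of ubiquitin and its activation none was called by limma, and 2 in each series had an unadjusted p under 0.05, beside 33.4% and 29.8% of all genes.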

How the data were processed

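Transcripts of A549 cells were hybridised to 8 one-colour Agilent arrays, 1 per dose, each carrying RNA pooled from 3 cultures. For each array the authors deposited scanner intensity per spot (median signal, local background, background-corrected processed signal) with the software's flags for outliers, saturation and spots above background. They also deposited a table of processed intensity. Set against the scanner files, it holds the spots' median signal less background, quantile-normalized within each series, and was used as an alternative. The number of arrays limits the precision, and p-values measure the spread of the arrays about the trend lines only.

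The processed signal was used without control and outlier spots, averaged per probe, quantile-normalized over the 8 arrays and put on the log2 scale. Genes were kept where, in each series, 1 array or more had a signal of 1.4 times the local background. Values under that limit were raised to the dimmest detected signal of the same array where they lay below it. Of 34127 probes, 22 had only outlier spots, and 24812 were matched by transcript accession to 19056 RefSeq gene names (GRCh38.p14, names and neighbours only). RefSeq lists pseudogenes of the same name for 21 of the 50 members, with which a probe may share sequence. Promoter windows were found for 44 members; PSMB6, PSMD4, PSMB1, PSMG3, PSMB7 and PSMA7 had no entry.

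Slopes per dose step (0, 1, 2, 3) came from limma 3.58.1 in R 4.3.3 with statmod 1.5.0 (intensity trend and robust estimation), as an intercept and 1 slope for each series, with 4 residual degrees of freedom, Benjamini-Hochberg adjustment over 19046 genes and a threshold of 0.05. The fit was tested on simulated data. Python 3.11.15 with numpy 2.4.6, pandas 2.3.3 and matplotlib 3.10.9 was used for summaries and figures. Named genes are, per agent, the 5 members highest and the 5 lowest at the top dose among those above background, all members with a called trend, the catalytic subunits PSMB5 to PSMB10 and, from the pathway lists, genes past 2-fold or called. Members and lists were chosen with earlier results of these data known, and some genes of the lists outside the members are not reported here. Alternatives were other scalings, backgrounds, probe rules, filters, controls, fits and leaving out each array.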

Additional observations from a re-analysis of the deposited data

How the results depend on the processing

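Scaling each array to its 75th percentile moved the median log2 ratio at the top dose of all proteasome genes to 0.10 (EEDS) and 0.25 (helveticoside), of the core to 0.075 and 0.29, of the lid to 0.32 and 0.35 and of the base with helveticoside to 0.15. It gave 8 genes 1.5-fold or more higher and 6 lower with helveticoside (reported 5 and 9) and 7 and 8 with EEDS (reported 7 and 9), and trends of 5 rising and 3 falling genes with EEDS and 3 and 2 with helveticoside. The processed values of the series table gave medians of -0.11 over all members and -0.14 over the core with EEDS and -0.11 over the core with helveticoside, 4 genes 1.5-fold or more higher and 10 lower with EEDS, and 7 falling trends with EEDS. Against the other series' vehicle control, the medians were -0.033 (core) and 0.51 (lid) with EEDS and -0.23 over all members and over the core alike with helveticoside. The signal as scanned and the normexp correction gave core medians of -0.10 and -0.11 with helveticoside. The median over all probes of a gene gave 1 rising trend in each series and 3 genes 1.5-fold or more higher with helveticoside. Only genes well above background on all arrays gave 7 falling trends with EEDS. Fits of 1 series alone gave 0 rising and 0 falling trends in either series. Over all genes, trends were called for 2879 with EEDS and 2147 with helveticoside, for 4600 and 1657 with the series table and for 0 in fits of 1 series alone. Leaving out each array in turn gave 0 to 4 falling and 0 to 3 rising trends with EEDS, and 0 to 2 falling and 0 to 1 rising trends with helveticoside. No called slope of a proteasome gene changed its sign in these refits, which were not summarised for other genes. Apart from the fits with fewer arrays or genes, the cause of these differences was not tested. No paired analysis was possible because each group had 1 array and the labels give no replicate numbers.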
